A study of Mus musculus with 4 samples.

Results

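The T cell receptor gene loci were described in 4 whole-genome bisulfite libraries of mouse CD4+ T cells. The members were the 1-kb windows of the mm10 assembly that lie in the Tra/Trd region (chr14:52400000-54230000), the Trb region (chr6:40890000-41560000) and the Trg region (chr13:19170000-19360000), and that held at least 3 CpG cytosines with 5 or more reads in both libraries of a comparison. This gave 606 windows (349 at Tra/Trd, 210 at Trb and 47 at Trg) of 1778117 windows tested across the genome. The regions also held 8153 positions, a position being a single CpG cytosine on one strand that has an entry in the deposited table, and 270 receptor gene segments in the RefSeq annotation (202 at Tra/Trd, 53 at Trb and 15 at Trg). Parts of each region were bounded by these segments. The members were chosen by location, and neither read depth nor methylation entered the choice.

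The cells came from the spleens of NOD mice, an inbred strain that develops autoimmune diabetes, and were sorted as effector T cells (Teff, CD4+CD25-) and regulatory T cells (Treg, CD4+CD25hi). The mice received either PBS or the proteins OX40L and Jagged-1 (OX40L-JAG1). Dosing began at 6 weeks of age and was repeated weekly for 3 weeks, and cells were taken at 10 weeks of age. There is 1 library for each cell type and treatment, and the number of animals behind each is not in the labels. Every test compared libraries (2, or all 4 for the interaction) and not conditions. The deposited table lists a position in a library only at 5 or more reads and otherwise gives 0. The autosomal mean, counting unlisted positions as 0, was 7.95 reads per position in PBS Teff against 4.99 in PBS Treg, and with OX40L-JAG1 it was 6.07 in Teff and 3.9 in Treg. Wherever 4 values follow each other below, they stand in this same order, first the PBS pair and then the OX40L-JAG1 pair, each with Teff before Treg.

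An antigen receptor gene is assembled in each developing lymphocyte by joining one variable (V), in some chains one diversity (D), and one joining (J) segment upstream of a constant (C) gene, and the DNA between the joined segments is usually cut out. In alpha-beta T cells, which include the CD4+ cells sorted here, the alpha and beta chains of the receptor come from Tra and Trb. The delta chain genes (Trd) lie inside the Tra locus, between most of the V segments and the Traj segments, so that joining a Trav to a Traj segment removes them. Alpha chain rearrangement can proceed repeatedly on both chromosomes, moving outward to more distal V and more 3′ J segments. In bulk DNA, loss of a segment in part of the cells and a lower yield of reads from it in all cells cannot be told apart.

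No receptor segment sequence was in the reference tables used. The sequences printed are the 250 bases upstream of 3 other genes inside the Tra V part, from RefSeq on GRCm38.p6, the assembly with mm10 coordinates, as examples of the sequence at the 5′ end, in the middle and at the 3′ end of that part. They were chosen after the table had been read. All 3 are given 5′ to 3′ on the minus strand, with each CpG in capitals. The first belongs to the olfactory receptor gene Olfr1508 at the 5′ end (chr14:52467462-52467711), the next to the predicted gene Gm30214 in the middle (chr14:53039467-53039716) and the last to the predicted gene Gm30392 beside Trdv2-2 at the 3′ end (chr14:53961653-53961902).
Olfr1508: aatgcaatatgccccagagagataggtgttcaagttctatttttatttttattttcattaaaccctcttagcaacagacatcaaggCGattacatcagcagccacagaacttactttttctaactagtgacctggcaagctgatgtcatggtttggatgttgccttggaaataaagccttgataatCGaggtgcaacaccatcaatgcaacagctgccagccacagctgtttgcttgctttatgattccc
Gm30214: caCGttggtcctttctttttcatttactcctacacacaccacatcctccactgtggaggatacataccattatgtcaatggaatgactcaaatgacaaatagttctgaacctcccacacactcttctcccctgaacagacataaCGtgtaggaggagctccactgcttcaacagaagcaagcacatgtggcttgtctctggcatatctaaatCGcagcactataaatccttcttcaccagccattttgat
Gm30392: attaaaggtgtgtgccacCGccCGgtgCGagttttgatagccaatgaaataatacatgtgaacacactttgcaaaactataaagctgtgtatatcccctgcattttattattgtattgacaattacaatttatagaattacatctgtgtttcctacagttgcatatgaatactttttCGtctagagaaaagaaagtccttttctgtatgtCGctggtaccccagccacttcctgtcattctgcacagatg
The Olfr1508 sequence holds 2 CpGs, or 4 cytosine positions over both strands, of which 3 were in the table. They were listed at 3, 2, 1 and 2 positions in the 4 libraries, with 13 of 22, 14 of 17, 5 of 5 and 10 of 12 reads methylated. None of the 6 positions of the Gm30214 sequence and none of the 10 positions of the Gm30392 sequence was in the table, so neither reached 5 reads in any library. Of the 4 positions upstream of Gm36448, also at the 5′ end, 1 was in the table. Over the 17019 RefSeq promoters of the same length with 1 to 8 CpGs, 54.2% of the positions were in the table.

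Read depth at Tra/Trd was above the autosomal mean at the 5′ end of the V segments and lower towards their 3′ end, where PBS Treg and both OX40L-JAG1 libraries lay far below PBS Teff. Depth is given as the mean reads per position of a part divided by the autosomal mean of the same library, so that 1 is the autosomal mean. Counted per kb and not per position, depth in PBS Teff was 0.255 over the Tra V part, 0.514 over the Trb V part and 0.273 over Trg, parts with few positions per kb. The V part, 1690 kb, was divided into 10 equal stretches, V 1 to V 10, from 5′ to 3′. V 1, which begins at Trav1, held 995 positions and had relative depths of 1.16, 1.17, 1.14 and 1.17. These 4 values differed by no more than their counting intervals. From V 4 to V 8 the values lay between 0.563 and 1.11, with both OX40L-JAG1 libraries below PBS Teff in each stretch. V 9, with Trav17 to Trav22 and Trdv1, held 173 positions and had 1.06, 0.645, 0.337 and 0.289. PBS Teff alone was still at the autosomal mean there. V 10, with Trav23 and the delta V segments Trdv2-1, Trdv2-2, Trdv3 and Trdv4, held 69 positions and had 0.762 (95% Poisson interval 0.691 to 0.839), 0.273 (0.221 to 0.334), 0.153 (0.118 to 0.195) and 0.111 (0.0752 to 0.159). The interval of PBS Teff overlapped none of the other 3, but the intervals leave out how positions came to be listed. PBS Teff had 418 reads over 59 listed positions in V 10, and 69.6% of the 69 positions were listed in PBS Teff alone. A position with too few reads to be listed counts as 0, which removes more positions from the shallower libraries. The intervals therefore cannot tell a difference in depth from an effect of this listing. Intervals cover counting error alone, and a read that spans several positions is counted at each, so the reads summed over positions are not independent molecules.

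**Figure D1:**
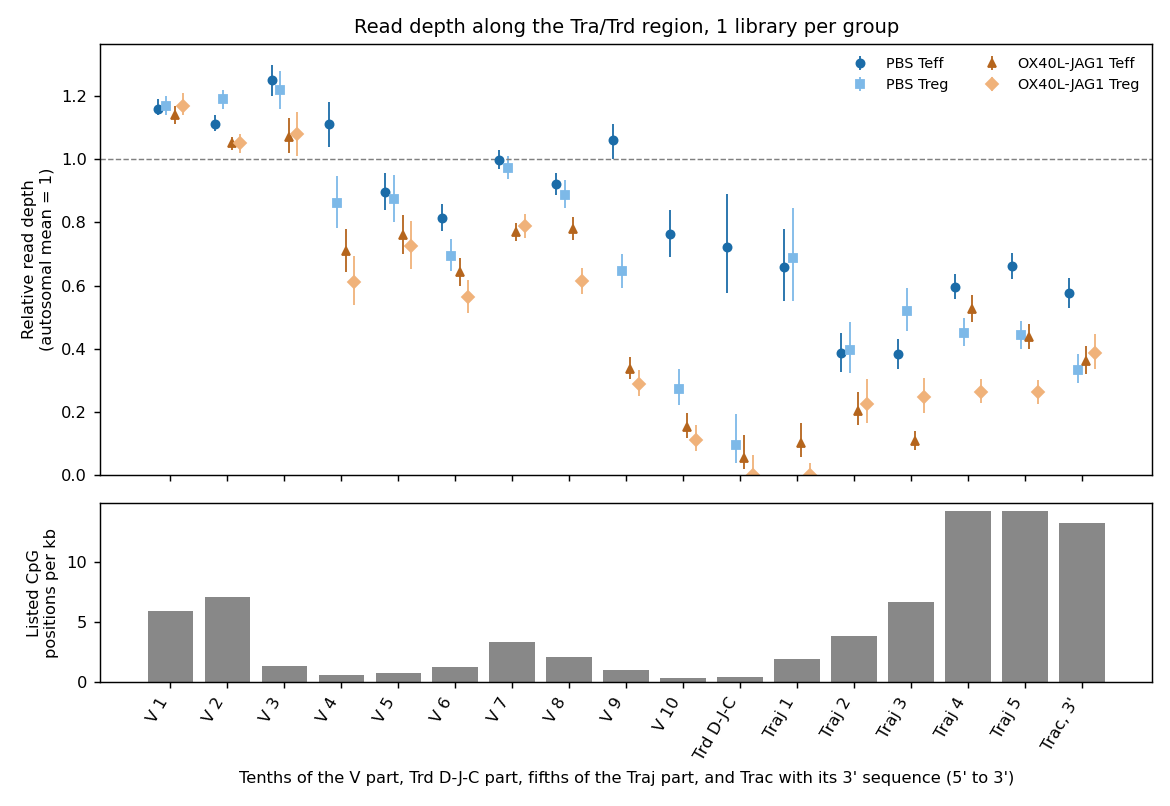
Relative read depth along the Tra/Trd locus in the 4 libraries (upper panel, linear axis, error bars are 95% Poisson intervals) and positions per kb (lower panel), for the 10 stretches of the V part, the Trd D-J-C part, 5 stretches of the Traj part (Traj 1 to Traj 5), and Trac with the 3′ part. The libraries lie together at 1.14 to 1.17 in V 1 and separate in V 9 and V 10, where in V 10 PBS Teff is at 0.762 and the others are at 0.111 to 0.273.

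The delta chain segments themselves had few or no listed reads in 3 of the 4 libraries. The Trd D-J-C part (Trdd1, Trdd2, Trdj1, Trdj2, the constant gene Trdc, and Trdv5, which lies 3′ of Trdc in inverted orientation) spans 35.7 kb and held 15 positions. All 15 were listed in PBS Teff, against 1 in PBS Treg, and 1 in Teff and 0 in Treg after OX40L-JAG1. The relative depths were 0.721 (0.577 to 0.891), 0.0935 (0.0376 to 0.193), 0.0549 (0.0178 to 0.128) and 0 (0 to 0.063). The PBS Teff value depends on the measure and was 1.42 by the share of positions listed and 0.0301 per kb. A position enters the table when any library reaches 5 reads, and PBS Teff was the deepest library, so its full count is in part set by how the table was made. Its 86 reads over the 15 positions lay little above the cut of 5 per position, below which the shallower libraries are given 0. Of the 15 positions, 86.7% were listed in PBS Teff alone, against 17.7% of autosomal positions. In V 10 and V 9 the share was 69.6% and 56.6%.

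Sparse stretches elsewhere on the autosomes gave the background of these depths. Of 396 autosomal 50-kb bins with 15 to 100 positions outside the receptor regions, a relative depth under 0.35 occurred in 1.01%, 2.53%, 1.77% and 3.28% in the 4 libraries. None of the 396 had a relative depth of at least 0.7 in PBS Teff with under 0.35 in the other 3 libraries, and in 4 (1.01%) at least 50% of the positions were listed in PBS Teff alone. V 9 and V 10 together gave 6 bins of this kind, of which 0, 2, 5 and 5 were under 0.35 in the 4 libraries, 1 had the combined pattern, and 5 had at least 50% of positions in PBS Teff alone. The immunoglobulin loci, which are assembled in B cells, had relative depths of 1.32, 1.36, 1.35 and 1.38 at Igh and 1.22, 1.25, 1.21 and 1.23 at Igk.

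The density of positions fell along the same stretch. It was 5.9 positions per kb in V 1, 7.11 in V 2, 1.03 in V 9, 0.409 in V 10 and 0.42 in the Trd D-J-C part, against 10.1 over the autosomes. Autosomal 50-kb bins with 20 to 60 positions, a density near that of V 9 and V 10, had median relative depths of 0.984, 1.01, 1.04 and 0.968, and those with 100 to 160 positions had 1.17, 1.18, 1.14 and 1.17. The part of position density in the depth of V 9 and V 10 was not tested. The CpG density of the genome sequence was not used here, so absence from the table and scarcity of CpGs could not be separated for single positions.

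The Traj segments, which lie between Trd and Trac, were below the autosomal mean in reads per position in all 4 libraries. Over the 535 positions of the Traj part the relative depths were 0.567, 0.466, 0.376 and 0.244, highest in PBS Teff. The PBS Teff value depends on the measure, since the share of positions listed, relative to the autosomes, was 0.953. Autosomal 10-kb bins with a relative depth of 0.5 to 0.65 in PBS Teff had medians of 0.583, 0.529, 0.581 and 0.473, so a lower median in OX40L-JAG1 Treg, but not in OX40L-JAG1 Teff, was also seen at such bins elsewhere. The Traj values of both OX40L-JAG1 libraries lay below percentile 10 of these bins, which was 0.421 in Teff and 0.297 in Treg. The Traj part was divided into 5 equal stretches, J 1 to J 5. J 1, next to Trd (Traj61 to Traj50), held 26 positions and was listed at 19, 15, 2 and 0 of them, with relative depths of 0.658, 0.686, 0.101 and 0. Here PBS Treg was level with PBS Teff, and both OX40L-JAG1 libraries were near 0. J 3 (Traj37 to Traj27, 87 positions) had 0.382, 0.52, 0.106 and 0.247, and J 5, next to Trac (Traj9 to Traj1, 186 positions), had 0.661, 0.442, 0.438 and 0.262. Depth in OX40L-JAG1 Teff was therefore lower in J 1 and J 3 than in J 5, where it lay level with PBS Treg. Trac, the alpha constant gene, and the 3′ part with 125 positions had 0.576, 0.333, 0.361 and 0.387, and by the share of positions listed 1.0 in PBS Teff.

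Methylation at Tra/Trd was high over the V part and low over the Traj segments and Trac. At positions listed in all 4 libraries, the V part stood at 82.1%, 82.4%, 78.9% and 79.7% (854 positions), and all autosomal positions stood at 85.3%, 85.0%, 81.7% and 82.2%. The lower values of the OX40L-JAG1 libraries in the V part thus lay beside an autosomal level that was lower in the same libraries. The Traj part stood at 13.4% (95% Wilson interval 9.03 to 19.5), 19.4% (12.8 to 28.3), 6.8% (3.33 to 13.4) and 8.33% (4.1 to 16.2) over 12 shared positions, and Trac with the 3′ part at 17.9%, 32.4%, 14.3% and 21.6% over 6. The intervals of the 4 libraries overlapped at the Traj part.

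Within the Traj part the level was high on the Trd side and low on the Trac side in both PBS libraries. Over each library's own positions, J 1 to J 5 stood at 69.9%, 24.8%, 15.5%, 7.62% and 9.92% in PBS Teff, and the levels were 64.0%, 27.3%, 20.4%, 13.4% and 10.7% for PBS Treg. In OX40L-JAG1 Teff J 2 to J 5 stood at 9.68%, 7.14%, 6.9% and 10.5%, and in OX40L-JAG1 Treg at 25%, 15.5%, 6.28% and 19.5%. J 1 was listed at 2 positions in OX40L-JAG1 Teff and at 0 in OX40L-JAG1 Treg, so the methylated end of the part could be read in the PBS libraries only. The Trd D-J-C part stood at 57.0% (46.4 to 66.9) over the 15 positions of PBS Teff. Since each library contributed different positions here, these levels are not a comparison between libraries.

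**Figure D2:**
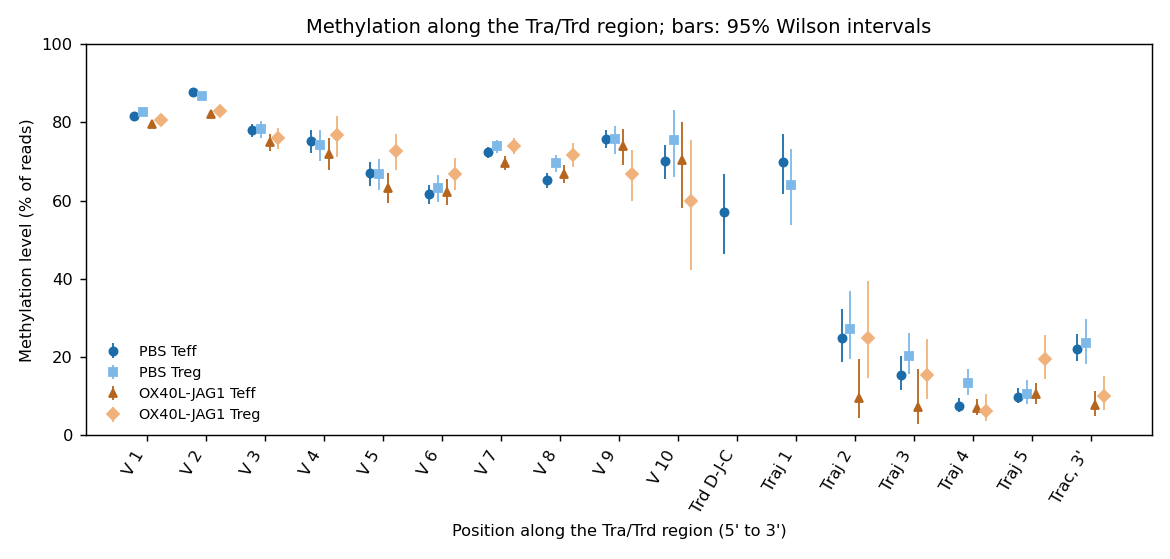
Methylation level in percent along the Tra/Trd locus for each library over its own positions, with 95% Wilson intervals, for the same parts as the plot of relative depth and for parts with at least 3 listed positions. The level is above 60% through the V part in PBS Teff, and falls from 69.9% to 9.92% from the first to the last stretch of the Traj part (Traj 1 and Traj 5 on the axis).

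Single Traj segments, read over the segment and 500 bases on either side, followed the order from the Trd side to the Trac side in part. Traj55, near the Trd side, stood at 88.9% over 5 positions in PBS Teff and 80% over 8 in PBS Treg, and none of its positions was listed in the OX40L-JAG1 libraries. Traj58, with the highest relative depth of the Traj segments in PBS Teff, had 1.79, 1.4, 0.659 and 0 in the 4 libraries. Traj18, the joining segment used by the invariant receptor of natural killer T cells, stood at 15.3%, 17.9%, 3.19% and 5.88%. Traj7 stood at 1.88%, 4.76%, 0% and 4.0%, over 29 positions in PBS Teff and 4 to 7 in the others. Traj39, Traj38 and Traj9 shared the lowest PBS Teff level, 0%, with Wilson upper bounds of 20.4%, 20.4% and 9.41%. Traj39 and Traj38 did not follow the order, since they lie nearer to Trd than Traj18 and Traj7, whose PBS Teff levels were higher. The lowest depth in PBS Teff, 0, was at Traj37 and Traj16. At the constant gene, Trac stood at 14.4% (10.1 to 20), 17.7% (12.0 to 25.4), 13% (6.42 to 24.4) and 13.5% (7.51 to 23.1), intervals that overlapped across the 4 libraries, with relative depths of 0.522, 0.529, 0.189 and 0.403. Trdc had a single position, with 7 reads in PBS Teff, 5 in OX40L-JAG1 Teff and none listed in either Treg library, of which 42.9% and 40% were methylated.

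The Trav segments were read thinly, since 61 of 130 had any position and 2 of 6 Trdv segments did. Their levels in PBS Teff ran from 0% at Trav6d-5 (16 reads, Wilson upper bound 19.4%) and Trav5-4 (28 reads, upper bound 12.1%) to 94.7% at Trav3n-2. Trav19, in V 9, had the highest depth of the Trav segments in PBS Teff, and its relative depths were 2.23, 1.5, 1.19 and 0.513, with levels of 81.7%, 80%, 82.8% and 100% over 4, 2, 2 and 1 positions. Its order across libraries was that of the stretch it lies in. Trav10n and Trav14-1 had the lowest depth in PBS Teff, 0.

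At Trb, the beta chain locus, depth was near the autosomal mean over the V segments and was lower in the D-J-C part, by the least in PBS Teff. The 1912 positions of the V part had relative depths of 1.06, 1.01, 1.04 and 0.99. The trypsinogen part, a block of digestive protease genes between the V segments and Trbd1, had 1.07, 0.988, 1.0 and 0.888 over 535 positions. The D-J-C part, 15 kb with 110 positions, had 0.97, 0.729, 0.714 and 0.624, with PBS Teff again the highest. It consists of a repeated arrangement, Trbd1 with its J segments and Trbc1 followed by Trbd2 with its J segments and Trbc2. The 84 positions from Trbd2 to Trbc2 had 0.785, 0.572, 0.545 and 0.467, and the 20 from Trbd1 to Trbc1 had 1.59, 1.29, 1.29 and 1.14.

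The stretch of Trbj2 segments was listed in PBS Teff alone. The 1.1 kb from Trbj2-1 to Trbj2-7 (chr6:41542754-41543856) held 18 positions, all listed in PBS Teff, with 113 reads of which 1 was methylated, and none listed in the other 3 libraries. The relative depth was 0.79 in PBS Teff and 0 in the others. Of 524880 autosomal 1-kb windows with at least 15 positions, 643 (0.123%) had 90% or more of their positions in PBS Teff alone. These windows were not matched to the Trbj2 segments for read depth. The constant gene next to them was read in every library, since Trbc2 and its 500-base flanks had relative depths of 0.792, 0.614, 0.45 and 0.325. The corresponding stretch of Trbj1 segments held no position in the table, so it allowed no comparison.

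The Trb D-J-C part was the least methylated part of the 3 loci. Over 21 positions shared by the 4 libraries it stood at 0.882% (0.301 to 2.56), 0.455% (0.0803 to 2.53), 5.02% (2.96 to 8.4) and 2.06% (0.805 to 5.18). The intervals of OX40L-JAG1 Teff and of both PBS libraries did not overlap, and that of OX40L-JAG1 Treg overlapped all the others. Over each library's own positions the Teff intervals did overlap, at 2.59% (1.72 to 3.9) after PBS and 4.82% (3.23 to 7.13) after OX40L-JAG1. PBS Treg, at 1% (0.39 to 2.54), still lay apart from OX40L-JAG1 Teff. At shared positions the V part stood at 85.4%, 86.5%, 81.6% and 83.7% (474 positions), and the trypsinogen part at 88.6%, 89.5%, 85.9% and 88.0% (118 positions). The 3′ part after Trbc2, which holds the beta enhancer and Trbv31, stood at 12.3%, 8.7%, 10.2% and 10.1% (16 positions). Among the J segments, each read together with its flanks, the PBS Teff level ran from 0.455% at Trbj2-7 to 1.69% at Trbj1-6 and Trbj1-7. The stretch of Trbj1 segments itself held no position, so the level given for Trbj1-6 and Trbj1-7 is that of flanking positions alone. Trbc1 stood at 2.21%, 1.67%, 5.68% and 0% (upper bound 6.11%), and Trbc2 at 11.6%, 2.17%, 11% and 7.89%.

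**Figure D3:**
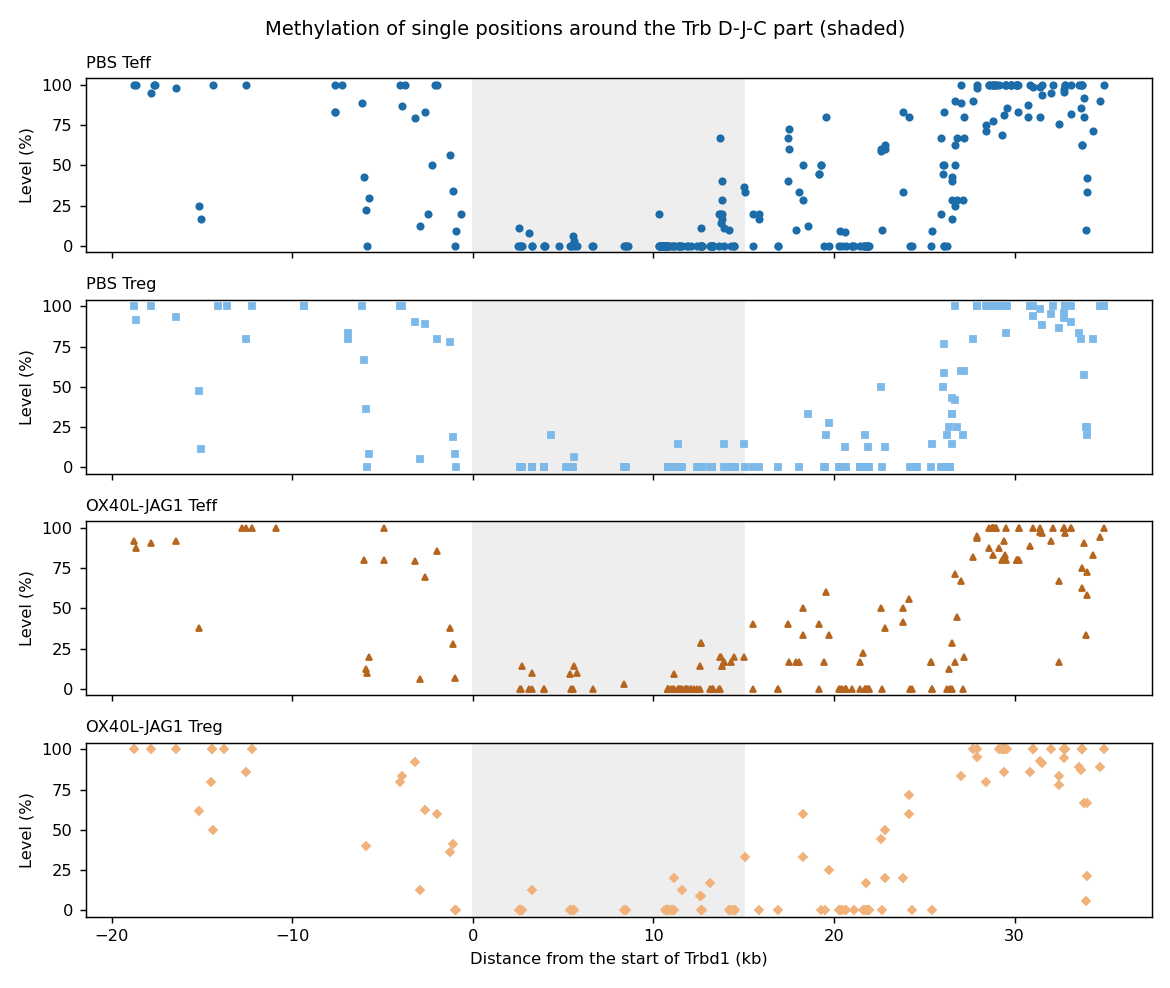
Methylation level of single positions in percent against the distance in kb from the start of Trbd1, in 1 panel per library, with the D-J-C part shaded. Most points within the shaded stretch lie near 0% in all 4 panels, with single positions in Trbc2 up to 66.7% in PBS Teff, and points on its 5′ side are mostly high; the 18 positions of the Trbj2 segments appear in the PBS Teff panel alone.

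The Trbv segments differed among themselves by whether RefSeq marks them as pseudogenes. Of 22 Trbv segments not marked as pseudogenes, 13, 9, 15 and 6 had at least 3 positions in the 4 libraries, with median levels of 52.2%, 52.0%, 49.0% and 29.6%. Of 13 pseudogenes, 8, 3, 4 and 4 had at least 3, with medians of 92.6%, 81.1%, 91.5% and 92.8%. In PBS Teff the ranges overlapped, from 15.6% to 81.6% for the first class and from 60.7% to 100% for the pseudogenes. Pooled over reads, the segments not marked as pseudogenes stood at 48.8% (45.5 to 52.2), 52.2% (47.6 to 56.8), 49.8% (46.1 to 53.5) and 42.9% (37.4 to 48.5), and the pseudogenes at 87.6% (83.4 to 90.8), 84.4% (77.5 to 89.5), 74.7% (67.5 to 80.8) and 92.1% (85.1 to 95.9). The pseudogenes were higher in each library, by the least in OX40L-JAG1 Teff, where 1 of them, Trbv11, was at 48.9%. The class was compared after the levels had been seen and was not tested. At Tra the same classes, pooled, stood at 55.1%, 50%, 48.0% and 59.4% for the Trav segments not marked as pseudogenes and 65.9%, 68.6%, 77.0% and 80% for the pseudogenes, of which 5, 2, 1 and 2 had at least 3 positions.

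**Figure D4:**
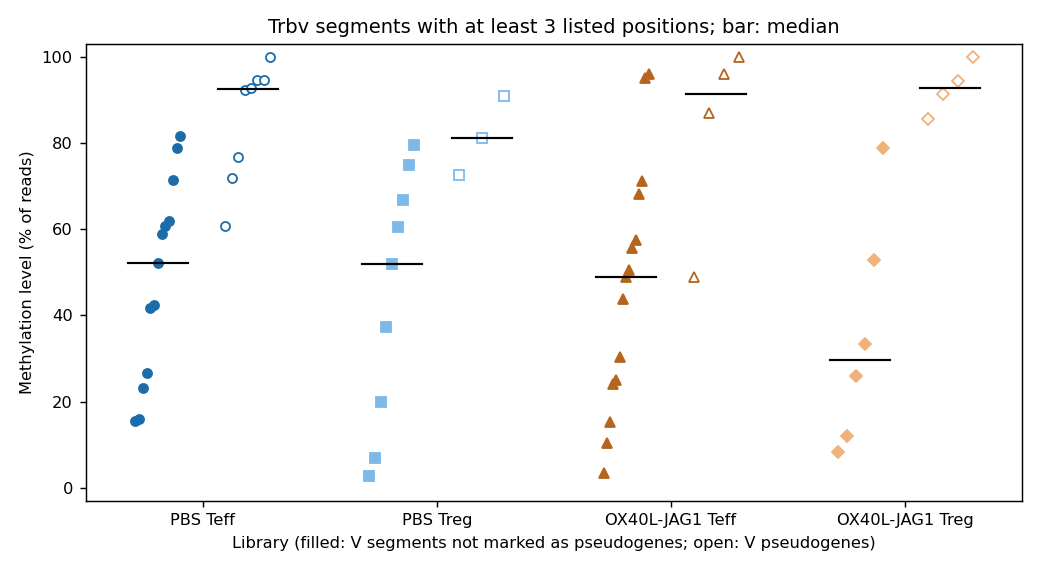
Methylation level in percent of each Trbv segment with at least 3 listed positions, by library. Filled points are segments not marked as pseudogenes, open points are pseudogenes, and the bar is the class median, which is 52.2% against 92.6% in PBS Teff.

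Among single Trbv segments, Trbv31 and Trbv1, which lie at opposite ends of the locus, had low levels. Trbv31 is the V segment 3′ of Trbc2 in inverted orientation and joins by inversion rather than deletion. It stood at 15.6%, 2.7%, 15.2% and 33.3%, and Trbv1 at 15.9%, 6.9%, 10.5% and 8.33%. The highest PBS Teff level was at the pseudogene Trbv6, which stood at 100%, 100%, 87.0% and 85.7% over 6, 1, 4 and 3 positions. Trbv19 had the highest depth of the Trbv segments in PBS Teff, with relative depths of 2.52, 2.5, 2.22 and 3.29 and levels of 41.7%, 37.3%, 50.6% and 26.0%. Trbv12-1 had the lowest depth in PBS Teff, 0.126.

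At Trg, the gamma chain locus, the region as a whole had neither the depth drop of Trd nor the low levels of the alpha and beta J segments. The 640 positions of the region had relative depths of 0.816, 0.756, 0.83 and 0.779, and 110 shared positions stood at 70.8%, 75.1%, 72.4% and 76.3%. The locus is arranged as repeated V-J-C clusters. The cluster from Trgv7 to Trgc1 stood at 75.5%, 81.9%, 77.8% and 85.3% (26 positions), the cluster of Trgc2 and Trgv2 at 60.2%, 61.3%, 59.5% and 53.4% (8 positions), and the cluster of Trgv1 and Trgc4 at 64.3% (59.8 to 68.5), 83.1% (78.7 to 86.7), 71.3% (66.4 to 75.8) and 79.6% (74.9 to 83.7) over 33. In the last of these both Treg libraries were higher than PBS Teff, with intervals that did not overlap it. The cluster of Trgv3 and Trgc3, 20.6 kb, had no position in the table.

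The gamma segments and constant genes lie in these clusters, so their levels share reads with the cluster levels and are no separate evidence. They are given over each library's own positions, which differ between libraries. Trgv1 had the lowest V level in PBS Teff and stood at 16.0%, 42.9%, 30.2% and 46.7%, and Trgv7 the highest, at 51.1%, 70.0%, 85.3% and 79.5%. Trgj4, the one gamma J segment with at least 3 positions, stood at 42.6%, 65.4%, 48.8% and 60.6%. Among the constant genes, Trgc4 stood at 64.1%, 85.8%, 74.2% and 77.6%, Trgc1 at 58.1%, 76.3%, 69.1% and 72.2%, and Trgc2 at 46.6%, 47.3%, 48.5% and 41.3%. Trgc1 and Trgc4 were thus lowest in PBS Teff, and Trgc2 differed by less than its intervals. The depth at Trgc1 was low in a single library, with relative depths of 0.774, 0.565, 0.744 and 0.14. Trgc3 had no position.

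As a share of windows, low methylation in 1-kb windows was most frequent at D, J and C segments. Of windows overlapping such a segment, 61.5% of 52, 52.4% of 42, 66.7% of 36 and 57.1% of 28 were under 20% methylated in the 4 libraries, against 1.75% to 1.86% of autosomal windows. Windows overlapping a V segment were under 20% in 10.6% of 66, 21.1% of 38, 14.3% of 49 and 10% of 20. Those touching no segment had medians of 89.2%, 88.9%, 84.4% and 86.2%, and 3.75%, 4.55%, 4.39% and 3.88% of them were under 20%, also above the autosomal share. By number, 28, 24, 26 and 16 windows under 20% touched no segment, against 32, 22, 24 and 16 at D, J or C segments.

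Between libraries, few windows of the 3 loci passed the test. Methylated against unmethylated reads at positions listed in both libraries were compared in each window by a two-sided Fisher's exact test, adjusted by Benjamini-Hochberg over all windows of the genome. A window was called when its adjusted p was under 0.05 and its level differed by 20 points or more. Between PBS Treg and PBS Teff 1 of 460 windows was called, higher in Treg, where 0.146% of all windows were called (0.0971% lower and 0.0494% higher in Treg). Between OX40L-JAG1 Treg and OX40L-JAG1 Teff 3 of 324 were called, all higher in Treg, against 0.0429% of all windows (0.0239% lower and 0.0189% higher). Between OX40L-JAG1 Teff and PBS Teff 3 of 517 were called, 2 lower and 1 higher in OX40L-JAG1, against 0.293% (0.259% lower and 0.0347% higher), and the median difference of the windows was -3.33 points against -3.21 over all windows. Between OX40L-JAG1 Treg and PBS Treg 0 of 308 were called by Fisher's exact test (21 at an unadjusted p under 0.05), against 0.0341% (0.0282% lower and 0.00592% higher). For the difference of the Treg-Teff differences between treatments, 0 of 238 were called by a Wald test of the interaction (12 at an unadjusted p under 0.05), against 0.0044%. The comparisons share libraries, and nothing particular to the loci is read from counts of 0 to 3.

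Reads and levels of the called windows follow, with the receptor segment nearest to each. The window at Trgc4 (chr13:19345001-19346000) stood at 24.4% of 82 reads, 80.8% of 26, 66.7% of 60 and 81.2% of 16. PBS Teff was the low library. At the positions shared by each pair, PBS Treg was 54.1 points higher than PBS Teff (28.3 to 70.6, from 26.7% to 80.8%, Fisher's exact test, adjusted p = 0.0362), over 4 positions. OX40L-JAG1 Teff was 40.4 points higher than PBS Teff (23.6 to 54.3, Fisher's exact test, adjusted p = 0.00211), over 10 positions. These contrasts both use PBS Teff.

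A second Trg window, between Trgv2 and Trgv1 (chr13:19338001-19339000), stood at 37.1% of 70 reads, 77.6% of 147, 49.3% of 148 and 98.0% of 49. Both Treg libraries were above both Teff libraries. These levels cover different positions, 11, 17, 18 and 8 in the 4 libraries. PBS Teff had no reads listed from base 19338074 to 19338318, where most positions of OX40L-JAG1 Treg lay. At the positions shared by each pair, OX40L-JAG1 Treg was 36.6 points above OX40L-JAG1 Teff (22.5 to 48.3, Fisher's exact test, adjusted p = 0.0103). The PBS pair differed by 28.3 points and was not called (Fisher's exact test, adjusted p = 0.77).

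In the Tra V part, the window 822 bases from the pseudogene Trav15-3 (chr14:53768001-53769000) stood at 59.9%, 78.6%, 63.9% and 87.0%, again with both Treg libraries above both Teff libraries. The OX40L-JAG1 pair differed by 28.1 points (17.4 to 37.2, Fisher's exact test, adjusted p = 0.00322). The PBS pair differed by 18.8 points with an adjusted p of 0.0423 by the same Fisher's exact test, under the 20 points required. At Trb, the window over the pseudogene Gm2719, 4121 bases from Trbv27 (chr6:41253001-41254000), stood at 8.22%, 33.3%, 6.25% and 61.3%. The OX40L-JAG1 pair differed by 53.5 points (37.9 to 64.8, Fisher's exact test, adjusted p = 3.73e-06) and the PBS pair by 26.7 points (adjusted p = 0.131).

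The other 2 called windows were lower in OX40L-JAG1 Teff than in PBS Teff. The window 894 bases from Trbv8 (chr6:41086001-41087000) stood at 96.3%, 100%, 75.0% and 92.3%, a difference of -22.4 points (-36.3 to -10.4, Fisher's exact test, adjusted p = 0.0334), with 1 position in each Treg library. The window between the trypsinogen genes Try5 and Try10 (chr6:41339001-41340000) stood at 93.1%, 67.3%, 56.5% and 56.7%, a difference of -37.1 points (-50.1 to -22.4, Fisher's exact test, adjusted p = 0.0016). There PBS Teff was above all 3 other libraries. When all read counts were divided by 3, none of the 6 windows kept an adjusted p under 1.

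Of 8 genes outside the loci that encode receptor partners or the rearrangement machinery (Cd3d, Cd3e, Cd3g, Cd247, Ptcra, Rag1, Rag2 and Dntt), 2 had a called window, in comparisons where 0.146% (PBS Treg against PBS Teff) and 0.293% (OX40L-JAG1 Teff against PBS Teff) of all windows were called. In these comparisons 6 and 8 windows of Cd3e were tested, with 1 called in each, and 59 and 63 of Cd247, with 0 and 1 called. Cd3e encodes a signalling chain of the receptor. Its window starting at base 44999001 of chromosome 9 was 23.9 points higher in PBS Treg than in PBS Teff and 24.9 points higher in OX40L-JAG1 Teff than in PBS Teff (Fisher's exact test, adjusted p = 7.5e-27 and 2.74e-30). Cd3e was read at high depth, with 1194, 862, 920 and 826 reads over 14 positions shared by the 4 libraries. The autosomal mean in PBS Teff was 7.95 reads per position. Such depth makes adjusted p-values small, and its cause was not tested. Cd247 encodes another signalling chain, and a window of it was 87.8% methylated in PBS Teff against 46.4% after OX40L-JAG1 (-41.4 points, Fisher's exact test, adjusted p = 0.000635).

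The labelled identities were checked at marker genes over positions shared by the 4 libraries. All 3 Treg markers were lower in both Treg libraries, among them Foxp3 at 89.1%, 51.6%, 80.6% and 58.2%. Markers of other cells were mostly methylated in every library: Cd8a stood at 95.7%, 89.5%, 88.9% and 87.5%, Cd79a at 98.2%, 82.0%, 93.9% and 82.4%, and Csf1r at 93.7%, 91.0%, 90% and 89.7%. These levels rest on few shared positions, 3 at Cd8a, 4 at Cd79a and 11 at Csf1r. The lowest among the reported CD8 T cell, B cell and myeloid markers was Pax5 (61.5%, 60.2%, 57.0% and 59.0%), which had the most shared positions of these, 223. Cd8b1 and Lyz2, over 5 and 2 positions, lay between 65.5% and 100% in every library, and Cd79b had no shared position. Spi1, a myeloid transcription factor gene, stood at 71.4%, 80.8%, 73.4% and 79.8% over 71 positions. It was lower in both Teff libraries, with 2 windows called higher in Treg in each treatment (18 and 14 tested). Among T cell markers, Cd3e stood at 18.2%, 39.9%, 39.6% and 54.5% and Cd3g at 38.4%, 44.6%, 45.0% and 55.1%, both lowest in PBS Teff, the library with the most reads over Trd. The part of other cell types in the depth of the receptor loci was not tested.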

How the data were processed

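Whole-genome bisulfite libraries (Kapa Hyper kit, Zymo Lightning EZ conversion, per the labels' protocols) were read by the authors with Trimmomatic and Bismark on mm10, per the submitters' processing notes; the sources used here give neither versions nor duplicate removal. Deposited were read counts, methylated read counts and, per the file headers, the level headed as a percentage but held as a fraction, for 25374149 CpG cytosines in 4 libraries. Every nonzero count is 5 or more. Listed reads totalled 208402911 (Teff) and 131555634 (Treg) after PBS, and 159291553 (Teff) and 103584075 (Treg) after OX40L-JAG1.

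Fisher's exact tests on 1000-base windows (at least 3 positions of 5 reads in both libraries), Benjamini-Hochberg adjustment, Wilson, Newcombe and Poisson 95% intervals and a Wald interaction (0.5 added to each cell) were computed in Python 3.11.15 with scipy 1.17.1, and the tests were tested on simulated data. Segment bounds came from RefSeq by symbol. Named were all called windows, the constant genes, the V and J segments with the lowest and highest level and depth in PBS Teff, and 8 receptor genes outside the loci. Too few segments had 3 positions shared by the 4 libraries, so segment levels use each library's own positions. The members and lists were chosen with earlier results of these data known; the stretches V 1 to V 10 and J 1 to J 5, the thresholds of the depth background, the pseudogene classes and the single segments Traj7, Traj18, Traj55, Trbv1 and Trbj2 were chosen after their values were seen. Alternatives were stricter minimum reads and positions, reads divided by 3, centring, omission of positions with very high read numbers, and other depth measures. A marker gene on the lists is not reported here.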

Additional observations from a re-analysis of the deposited data

How the results depend on the processing

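No paired analysis was possible because each group has 1 library, and none could be left out. Called windows between the PBS libraries went from 1 to 2 with at least 10 reads per position, to 3 with at least 5 positions per window and to 0 with reads divided by 3. The windows were not the same. The Trgc4 window, the 1 called at first, had too few positions to be tested with at least 10 reads or at least 5 positions. With at least 10 reads, the Gm2719 window was called (31.9 points, Fisher's exact test, adjusted p = 0.00652). So was the window between the trypsinogen genes (-28.2 points, Fisher's exact test, adjusted p = 0.049). No window named above was among the 3 called with at least 5 positions. Division by 3 also gave 0 in place of 3 between the OX40L-JAG1 libraries and between the Teff libraries. Centring on the median left 20 points unmet at the Trbv8 window. Relative depths in PBS Teff moved with the measure. Given as reads per kb, against the flanks of 500 kb, or as share of positions listed, they were 0.0301, 1.0 and 1.42 for Trd D-J-C (0.721), 0.46, 0.787 and 0.953 for Traj (0.567), 0.754, 0.8 and 1.0 for Trac (0.576), and 0.708, 0.774 and 1.19 for Trb D-J-C (0.97). For the Tra V part (1.07) reads per kb gave 0.255 and the flanks 1.49, and for the Trb V part (1.06) 0.514 and 0.844. For Trg (0.816) reads per kb gave 0.273 and the share of positions listed 1.01. Reads per kb also count the scarcity of positions. The PBS Teff level moved to 83.6% with at least 10 reads and 80.4% as a mean of positions for Tra V (82.1%), to 2.94% with at least 10 reads for Traj (13.4%), and in the same order to 86.6% and 90.3% for trypsinogen (88.6%) and 76.3% and 63.7% for Trg (70.8%). No difference of a called window changed sign. Relative depths in PBS Teff did change side of 1. By the share of positions listed, Trd D-J-C, Trb D-J-C and Trg moved from below 1 to above it. By reads per kb, Tra V and Trb V moved from above 1 to below it, Trb V also against the flanks. As an alternative chosen after seeing the data, the listed share of V 10 gave 1.21, 0.487, 0.199 and 0.194 in the 4 libraries. Likewise, Trbv levels at shared positions were 55.4% (16 positions) against 96.4% (3 positions) for pseudogenes in PBS Teff. The Trd D-J-C part had no position shared by all libraries, hence no shared level. The cause of these shifts was not tested. The cut at 5 reads removes more positions from the shallower libraries. At parts with depth near 0, in OX40L-JAG1 Teff as in the Treg libraries, absent reads and reads below the cut could not be told apart.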
